A study of Daphnia magna with 24 samples.

Results

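Gene expression in animals exposed to long silver nanowires was compared directly with that in animals exposed to dissolved silver. The comparison takes the 4 arrays titled L-PVP-NW A to D and the 4 titled Ag+ 1 to 4, 8 of the 24 arrays in the series, with all 14338 features of the array. The animal is Daphnia magna, a freshwater water flea used in toxicity testing. Whole animals kept in COMBO medium, about 20 per exposure, were exposed for 24 h. L-PVP-NW animals received long silver nanowires with a polyvinylpyrrolidone (PVP) coat, a polymer that keeps particles dispersed. Ag+ animals received ionic silver, with the salt not named in the labels. Each exposure was set at 0.1 of the median lethal concentration (LC50) of the silver form itself, so the mass of silver may differ between the 2 groups, and its part in the results was not tested. Unexposed animals in medium (Control, 4 arrays) and 3 other nanowire groups of 4 arrays (S-PVP-NW, L-SiO2-NW and S-SiO2-NW) serve as reference. Clone, sex and age of the animals are not given in the labels, and neither is whether replicates came from separate cultures. The p-values thus measure a spread between arrays that may be technical, pooled for each feature over all 6 groups.

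In freshwater crustaceans dissolved silver is known to block sodium uptake, in part by inhibiting the sodium/potassium pump, while silver particles can act through the ions they release and through contact or ingestion. Female daphnids devote much of their protein synthesis to vitellogenin, the yolk precursor, which in Daphnia is fused to a superoxide dismutase (SOD) domain. Daphnids also make hemoglobin, the oxygen carrier of their blood, in amounts that follow oxygen supply, and they rebuild their cuticle at each moult.

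The probes of 9 features that carry the results are shown, as printed in the deposited annotation, 5′ to 3′ and all in lower case because no part of a probe is singled out. The first pair reads vitellogenin, and only the first of these passed the test. The cytochrome oxidase and NADH dehydrogenase probes read transcripts with mitochondrial names, the S25e probe a ribosomal protein, and the secreted protein and papain-family probes the named features with large differences beside vitellogenin. The last pair belongs to features that were high in L-PVP-NW alone among the 6 groups.
DM02775P1, vitellogenin fused with SOD: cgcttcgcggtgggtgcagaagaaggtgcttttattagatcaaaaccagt
DM02255P1, vitellogenin fused with SOD: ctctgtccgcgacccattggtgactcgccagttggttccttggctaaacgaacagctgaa
DM02000P3, 10 kDa putative secreted protein: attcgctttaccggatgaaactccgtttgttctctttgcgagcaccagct
DM01989P3, S25e ribosomal protein: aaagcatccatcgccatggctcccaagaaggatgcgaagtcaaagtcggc
DM01562P1, cytochrome oxidase subunit I: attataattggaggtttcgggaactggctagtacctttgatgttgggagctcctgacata
DM02802P1, NADH dehydrogenase subunit 5: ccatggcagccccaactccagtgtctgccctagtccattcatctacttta
DM02974P1, papain family cysteine protease: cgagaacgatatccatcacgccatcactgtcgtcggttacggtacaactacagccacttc
DM04057P3, no gene name: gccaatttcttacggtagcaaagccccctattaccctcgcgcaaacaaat
DM11644P3, no gene name: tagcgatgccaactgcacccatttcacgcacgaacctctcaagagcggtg

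The arrays of the 2 groups differed in ways that move with the exposure. The 1st percentile of intensity, the array floor, was 45 to 46 on the Ag+ arrays and 48 to 50 on the L-PVP-NW arrays, with no overlap. What sets the floor and the exposure therefore cannot be told apart, and the labels give no slide, scan or batch. Between 24.5 and 31.6% of features on the L-PVP-NW arrays and 28.3 to 33.1% on the Ag+ arrays stood above 2 times the lower quartile of their array; a feature below that limit is called dim. No feature was at the scanner ceiling of 65535 on the Ag+ arrays, against 2 to 5 on the L-PVP-NW arrays. On Ag+ 2, 310 features had a value of 0 and were treated as missing. Correlations of normalised log2 intensity were 0.95 to 0.973 among L-PVP-NW arrays, 0.918 to 0.96 among Ag+ arrays and 0.872 to 0.962 between the groups.

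L-PVP-NW animals differed from Ag+ animals at many features, with higher levels of 1 vitellogenin probe, most ribosomal protein and muscle probes and 3 nuclear-encoded respiratory subunits, and lower levels of cytochrome oxidase I, NADH dehydrogenase 5, a papain-family protease, a muscle fatty acid-binding protein and an eye opsin. Of 14338 features tested, 1005 (7.01%) were higher and 1229 (8.57%) lower in L-PVP-NW, 2234 (15.6%) in all, by limma at a Benjamini-Hochberg adjusted p under 0.05. Over 2-fold, 299 were higher and 192 lower. At 1126 of the 2234 features called, the deposited intensities of the 2 groups did not overlap. The named features with the largest differences were taken only from features without overlap, so their separation is not independent evidence. Only 1024 features have a description in the deposited annotation. Of the features called, 168 have a protein match at an E value of 0.001 or less and 112 a gene name, 76 of these higher and 36 lower. Among features with a gene name, vitellogenin DM02775P1 had the largest positive and the papain-family protease DM02974P1 the largest negative difference. Features dim on all 8 arrays made up 714 of the 2234 calls and 8681 of the 14338 features tested. The log2 differences of dim features are understated by the background offset of 50.

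The number and balance of calls depended on the arrays and on the scaling. It was 1172 without Ag+ 3, 1231 without Ag+ 4, 1268 without L-PVP-NW A and 1218 without L-PVP-NW B, and 29 when the array floor entered as covariate, where 8 of the 73 features named by rule or by hand that had passed still did. The share of calls that were higher in L-PVP-NW was 45% here and 30% after centring arrays on their median. It was 57.7% when raw arrays were brought to equal 75th percentiles, and 77.3% when only features bright on all arrays set that percentile, scalings that moved the median of all features by 0.314 and 0.395 on the log2 scale.

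**Figure D1:**
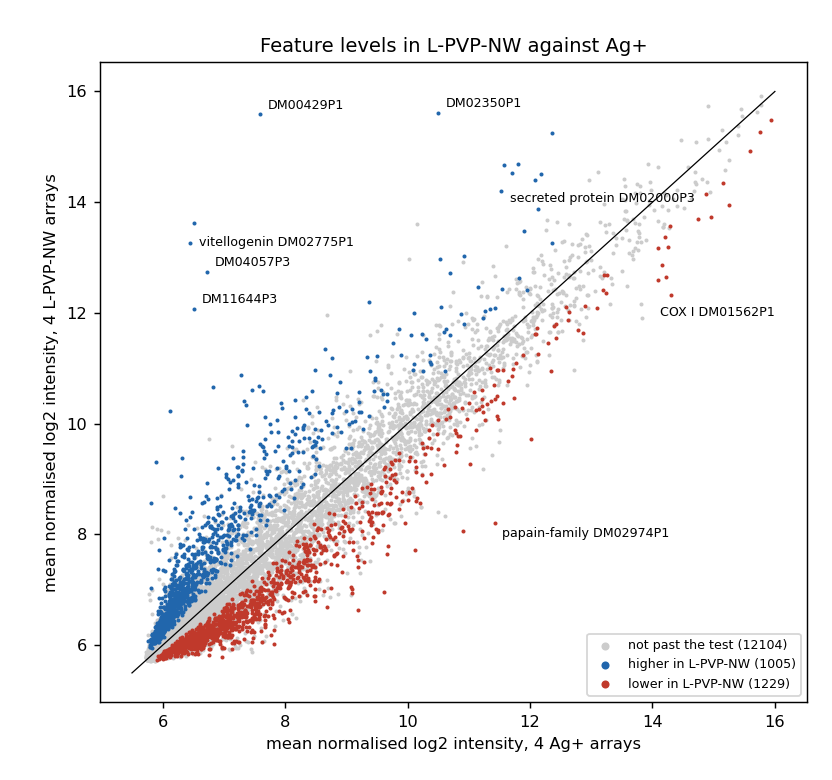
Mean normalised log2 intensity of every feature on the 4 L-PVP-NW arrays (vertical) against the 4 Ag+ arrays (horizontal), with equality as a line. The 1005 features called higher and 1229 called lower in L-PVP-NW are coloured. A handful lie far above the line, among them DM00429P1 with a mean of 7.6 in Ag+ and 15.59 in L-PVP-NW.

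Yolk transcripts gave 1 very large difference and 10 that did not pass. Vitellogenin DM02775P1 read 184, 57, 56 and 55 on Ag+ 1 to 4 and 3756, 26641, 2720 and 25244 on L-PVP-NW A to D. The groups did not overlap, and 3 of the 4 Ag+ arrays were dim. The difference, 6.82 ± 0.89 (log2, SE, adjusted p = 0.000272), is thus given as at least 75.7-fold, a bound for dimness that leaves out the SE. L-PVP-NW B and D were near the Control arrays, which read 17536, 42662, 33190 and 53310, while A and C were lower. Against Control, L-PVP-NW differed by -1.69 in log2 (adjusted p = 0.597). At the other 9 vitellogenin probes L-PVP-NW also lay below Control, and no difference passed. Mean intensity in Control, Ag+ and L-PVP-NW was 4825, 1144 and 1393 at DM02255P1, and 201.8, 70.5 and 78.25 at DM05876P2. L-PVP-NW minus Control was -1.74 (adjusted p = 0.427) and -1.48 (adjusted p = 0.0685) at these probes, where L-PVP-NW was nearer Ag+ than Control.

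The other 10 members of the yolk list, 9 vitellogenin probes and a vitelline membrane outer layer homolog that the word match also took in, ranged from -1.66 to 1.45 in log2. Vitellogenin DM02255P1 read 1557, 1718, 661 and 641 in Ag+ and 1739, 921, 738 and 2173 in L-PVP-NW, with overlapping groups and a difference of 0.74 ± 0.68 (adjusted p = 0.531). DM00120P2 read 80, 68, 51 and 55 in Ag+ against 355, 125, 58 and 212, a difference of 1.45 ± 0.57 (adjusted p = 0.09). DM01556P2 went the other way, with 12426, 19523, 7806 and 12306 in Ag+ and 8089, 2522, 2127 and 6094 in L-PVP-NW (-1.66 ± 0.81, adjusted p = 0.182). At all 9 of these vitellogenin probes L-PVP-NW C read lower than L-PVP-NW D, and the range of the L-PVP-NW arrays met that of the Ag+ arrays. The list median was 0.469, against -0.003 over all features and 0.127 over the 493 features with a match, of which 22.1% were higher and 12% lower. These shares, beside 7.01% higher and 8.57% lower over all features, are the background for every list count. This and the following lists rest on names given to features that the authors selected on these samples, so their counts are not independent evidence of a direction. The mean level of the 11 members on the normalised log2 scale was 8.03 to 8.29 in Ag+ and 9.60, 8.83, 7.78 and 9.86 in L-PVP-NW, so array C lay below and the other 3 above the Ag+ arrays. As whole animals were used, fewer cells of a type and less RNA per cell cannot be told apart. The 11 probes share no run longer than 8 bases in any of 55 pairs, so they read separate stretches.

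Differences of this size were also seen at features without a name, which were bright in Control too. DM00429P1 read 1548, 95, 97 and 72 in Ag+ and 65535, 30667, 47765 and 63633 in L-PVP-NW, a difference of 8.00 ± 0.70 (adjusted p = 2.89e-06). It was at the ceiling on all 4 Control arrays. DM02924P1 read 132, 61, 89 and 58 against 15861, 30037, 1284 and 31586 (7.12 ± 1.14, adjusted p = 0.00106, at least 105-fold). DM02350P1 read 3758, 1293, 1217 and 1196 against 52615, 65535, 32679 and 65535 (5.11 ± 0.38, adjusted p = 4.05e-07), with the ceiling reached on 2 L-PVP-NW arrays. At each of these 3 features every L-PVP-NW array lay above every Ag+ array, and array C was the lowest of its group at the last pair. DM02000P3, matched to a 10 kDa secreted protein of a tick, read 4011, 3169, 2450 and 3056 in Ag+ and 33172, 9393, 35242 and 6283 in L-PVP-NW (2.67 ± 0.43, adjusted p = 0.00106). Here L-PVP-NW A and C were the high arrays, the reverse of vitellogenin DM02775P1.

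**Figure D2:**
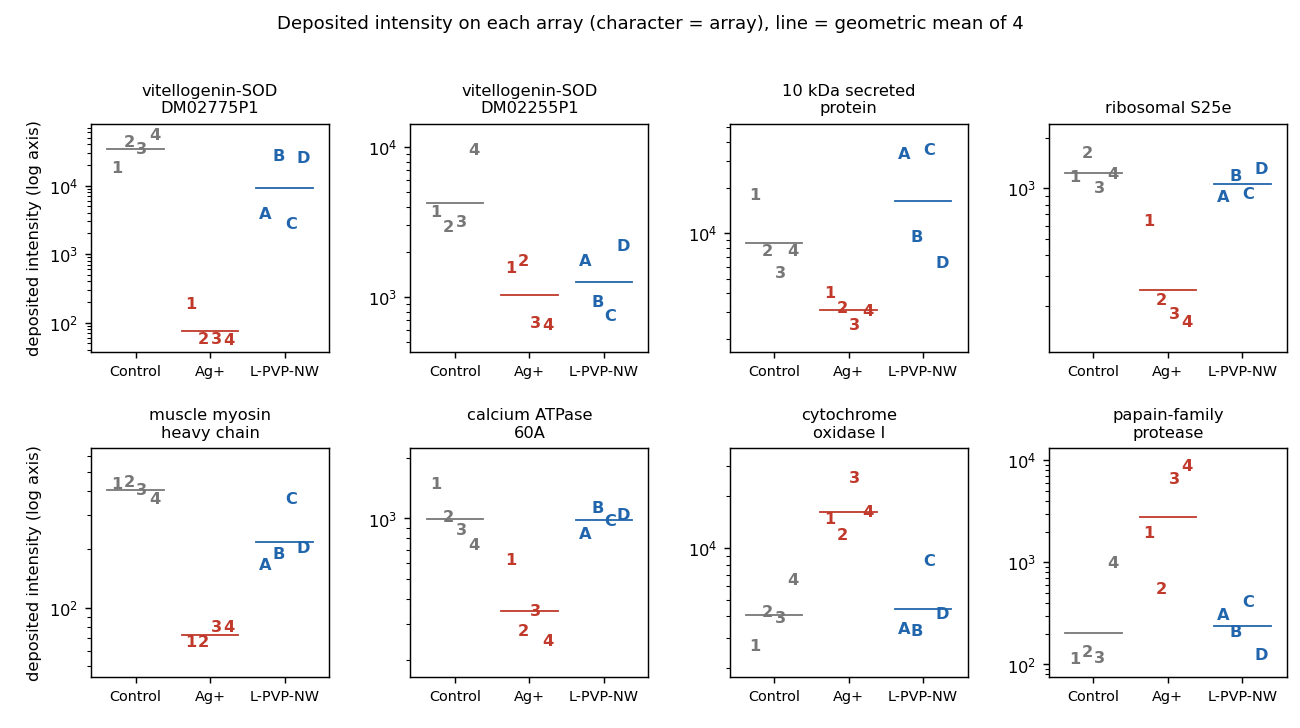
Deposited intensity (log axis) of 8 features on each Control, Ag+ and L-PVP-NW array, each array drawn as its own number or letter, with the geometric mean of 4 as a line. Vitellogenin DM02775P1 is at 55 to 184 in Ag+ and 2720 to 26641 in L-PVP-NW; cytochrome oxidase I and the papain-family protease are reversed.

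Transcripts for the protein-making machinery were mostly higher in L-PVP-NW than in Ag+. Of 27 cytosolic ribosomal protein features 21 were higher, 1 lower and 5 did not pass, with a median of 1.172. Their mean normalised log2 level was 8.79 to 9.28 in Control, 7.52 to 8.14 in Ag+ and 8.22 to 9.04 in L-PVP-NW. S25e, a small-subunit protein, read 638, 215, 176 and 158 in Ag+ and 886, 1182, 923 and 1292 in L-PVP-NW (2.43 ± 0.41, adjusted p = 0.00129). Ag+ 1 was the highest Ag+ array and still lay below all 4 L-PVP-NW arrays. S-PVP-NW (2.79), L-SiO2-NW (2.08) and S-SiO2-NW (2.42) were also above Ag+ at S25e. The P2-like stalk protein read 895, 340, 344 and 447 against 1337, 2022, 1394 and 1549 (2.14 ± 0.35, adjusted p = 0.0011). L44 (1.96), S28 (1.84), the stalk protein P1 (1.73) and ribosomal protein subunit 3 (1.68) were also higher. They are among the named features chosen for no overlap between the groups. A feature named ribosomal protein S3, DM01569P1, did not pass (0.555, adjusted p = 0.0843). L3e, a large-subunit protein, was the exception among those that passed, with 282, 260, 490 and 407 in Ag+ and 133, 121, 180 and 170 in L-PVP-NW (-0.81 ± 0.20, adjusted p = 0.0114). S20 (-1.83, adjusted p = 0.0584) and S24 (-0.39, adjusted p = 0.87) also had negative differences that did not pass.

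Around the ribosome, the translationally controlled tumor protein, a growth-linked protein, read 234, 227 and 152 on Ag+ 1, 3 and 4 and 567, 413, 890 and 715 in L-PVP-NW (2.06 ± 0.44, adjusted p = 0.00535); Ag+ 2 had no value. Initiation factor 5A, which eases peptide bond formation, was higher by 1.22 (adjusted p = 0.00229). Initiation factor 4A2, an RNA helicase (DM01590P4), read 671, 564, 883 and 1397 in Ag+ against 177, 249, 666 and 268 (-0.98 ± 0.30, adjusted p = 0.0336), with L-PVP-NW C within the Ag+ range. That call was lost without Ag+ 3 (0.0641), Ag+ 4 (0.122), L-PVP-NW A (0.117), B (0.0833) or D (0.0569). A ribosome-associated membrane protein was higher by 1.73 (adjusted p = 0.00186).

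These list counts move with a property of the annotation. In the deposited annotation each protein match has a reading frame whose sign says whether it lies on the given strand of the source sequence or on its reverse. Of 179 matched features with a negative frame 74 were higher and 5 lower in L-PVP-NW, with a median of 0.453. Of 314 with a positive frame 35 were higher and 54 lower, with a median of -0.199. Outside the ribosomal and muscle lists the counts were 50 higher and 5 lower of 149 against 26 and 53 of 299. Above a mean intensity of 200, they were 23 and 4 of 52 against 25 and 29 of 204. Of the ribosomal features 21 have a negative frame, 18 of them higher and none lower, and 6 a positive one, 3 higher and 1 lower. The labels and files do not state which strand a probe reads, and the probe sequences were not translated to find out. The part of frame sign in the list results was not tested.

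**Figure D3:**
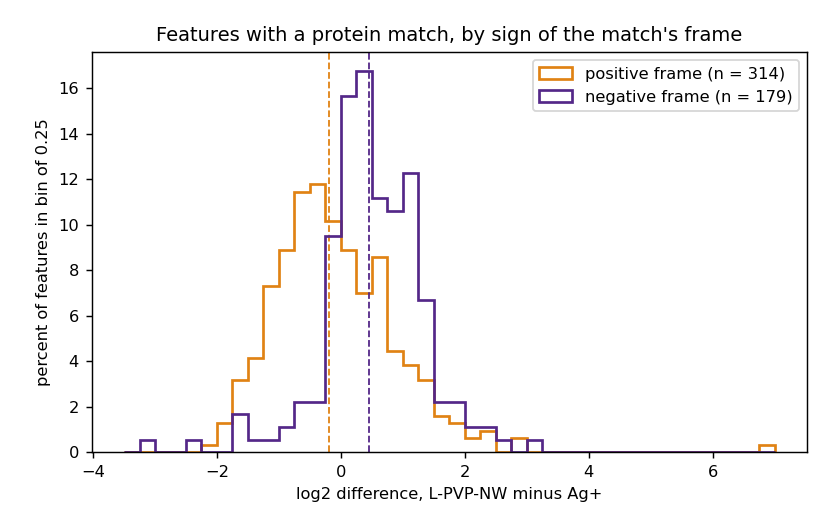
Distribution of log2 differences (L-PVP-NW minus Ag+, horizontal) over features with a protein match, as percent of features per bin of 0.25, by sign of the frame of the match, with medians dashed. The negative-frame features centre at 0.453 and the positive-frame ones at -0.199.

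Muscle and cytoskeleton transcripts were higher in L-PVP-NW at 12 of 18 features and lower at none, with a median of 1.008. In this list 6 of 9 members were higher with either sign of the frame. With median centring 8 of the 18 were higher. DM00704P3, a muscle myosin heavy chain and so a thick-filament motor, read 66, 66, 79 and 79 in Ag+, dim on all 4 arrays, and 164, 188, 360 and 201 in L-PVP-NW (1.73 ± 0.27, adjusted p = 0.000921, at least 2.39-fold). Another myosin heavy chain, DM02391P3, read 235, 116, 180 and 131 against 362, 416, 363 and 384 (1.60 ± 0.23, adjusted p = 0.000667). At both myosin probes every L-PVP-NW array lay above every Ag+ array, and DM00704P3 is among the features chosen for no overlap. A titin-like protein, the elastic ruler of the sarcomere, was higher by 1.45 (adjusted p = 0.00109), and standard paramyosin, the invertebrate thick-filament core, by 1.22. Beta-tubulin (0.40), the building block of microtubules, transgelin (-0.03) and actin-depolymerizing factor (-0.43), both actin-binding proteins, did not pass.

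Calcium pumps followed the same direction and the calcium release channel the opposite one. Calcium ATPase at 60A, the sarcoplasmic reticulum pump, read 619, 276, 346 and 247 in Ag+ and 830, 1114, 966 and 1038 in L-PVP-NW (1.93 ± 0.35, adjusted p = 0.00209). A second calcium-transporting ATPase feature was higher by 1.76 (adjusted p = 0.00156). The ryanodine receptor, through which calcium leaves that store, read 359, 376, 735 and 559 in Ag+ and 125, 143, 320 and 122 in L-PVP-NW (-1.17 ± 0.26, adjusted p = 0.00601). No array of one group reached into the other at any of these 3 features, which was a condition of their choice. Of the 8 calcium and ion transport features 4 were higher, 1 lower and 3 did not pass, with a median of 0.335.

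The list holds the sodium/potassium pump, a known target of ionic silver. Its subunit alpha-B DM01589P2 read 67, 68, 61 and 70 in Ag+ and 98, 105, 88 and 87 in L-PVP-NW, dim on all 8 arrays, with a difference of 0.54 ± 0.14 (adjusted p = 0.0156). A second alpha feature, DM02022P2, read 56, 88, 79 and 223 against 70, 103, 176 and 84 (0.13 ± 0.36, adjusted p = 0.86), with overlapping groups. The alpha-B call was lost without Ag+ 3 (adjusted p = 0.0571), L-PVP-NW A (0.0638) or L-PVP-NW B (0.0618), and the sign of DM02022P2 turned with median centring (-0.01). Both pump features were named after their values were seen. A vacuolar proton ATPase subunit, which acidifies compartments and energises ion uptake, was higher by 0.90 (adjusted p = 0.00312, at least 1.45-fold), from intensities of 68 to 92 in Ag+ and 120 to 154 in L-PVP-NW.

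Respiratory chain transcripts did not move together. Cytochrome oxidase subunit I, encoded by mitochondrial DNA, read 14669, 11768, 25438 and 16096 in Ag+ and 3333, 3259, 8330 and 4115 in L-PVP-NW (-1.97 ± 0.40, adjusted p = 0.00394). NADH dehydrogenase subunit 5, also mitochondrial, read 11068, 16013, 20556 and 17547 against 3394, 5362, 8273 and 5897 (-1.57 ± 0.26, adjusted p = 0.00126). Both probes were bright on all 8 arrays, and their groups did not overlap, which was a condition of their choice. Cytochrome oxidase subunit 2, a mitochondrial transcript named here after its values were seen, read 118, 197, 549 and 2545 against 89, 92, 120 and 207, a difference of -1.51 ± 1.08 that did not pass (adjusted p = 0.397).

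Of 4 nuclear-encoded subunits in the list 3 were higher. A small subunit of ubiquinol-cytochrome c reductase (complex III), DM02249P3, read 273, 252, 122 and 172 in Ag+ and 556, 612, 787 and 510 in L-PVP-NW (1.94 ± 0.42, adjusted p = 0.00544). Cytochrome c oxidase Va read 739, 380, 523 and 353 against 936, 970, 771 and 1125 (1.43 ± 0.29, adjusted p = 0.00413), and Vb (DM02011P1) was higher by 1.07 (adjusted p = 0.0121, and 0.0505 without L-PVP-NW A). The Rieske subunit of complex III did not pass (0.09, adjusted p = 0.957). The respiratory list thus holds 3 features higher and 1 lower of 5, with a median of 1.068; cytochrome oxidase I and 2 fell outside it because the word match asked for the full enzyme name.

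Chaperones, which fold proteins, were higher at 4 of 6 features and lower at none, with a median of 1.016. Heat shock protein 60, the mitochondrial chaperonin, read 244, 163, 218 and 150 in Ag+ and 179, 423, 525 and 452 in L-PVP-NW (1.30 ± 0.32, adjusted p = 0.0118), with L-PVP-NW A inside the Ag+ range. Calreticulin, the chaperone and calcium store of the endoplasmic reticulum, was higher at both of its features (DM00482P3, 1.19, at least 1.95-fold, and DM00749P3, 0.78, at least 1.16-fold), the second of these calls being lost without any 1 of the 8 arrays other than Ag+ 1 and L-PVP-NW C (adjusted p of 0.104 to 0.129). A cytosolic heat shock protein 90 (DM02180P3) was higher by 0.90 (adjusted p = 0.00919), with L-PVP-NW A, at 112, inside the Ag+ range of 102 to 160. Another heat shock protein 90 feature, DM01059P3, did not pass (1.13, adjusted p = 0.222). With median centring 1 of the 6 chaperone features was higher.

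Redox and detoxification transcripts had a negative median of -0.604, and 1 of 7 passed. Cytoplasmic thioredoxin reductase 1, which regenerates the thiol reductant thioredoxin, read 910, 872, 1814 and 1688 in Ag+ and 309, 368, 858 and 359 in L-PVP-NW (-1.02 ± 0.27, adjusted p = 0.0153). L-PVP-NW C read 858 and Ag+ 2 read 872, the nearest pair, and the call (DM00670P2) was lost without Ag+ 3 (adjusted p = 0.0595) or Ag+ 4 (0.0545). A pair of glutathione S-transferase-like features, which conjugate toxicants, had differences of -0.49 and -0.60, the iron store ferritin -0.03 and -0.75, and a cytochrome P450 -0.74, and none of these passed. A putative defense protein, from the immune list of 2 features, read 7877, 6440, 8403 and 9615 against 3750, 2513, 5775 and 3603 (-1.02 ± 0.16, adjusted p = 0.000852).

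**Figure D4:**
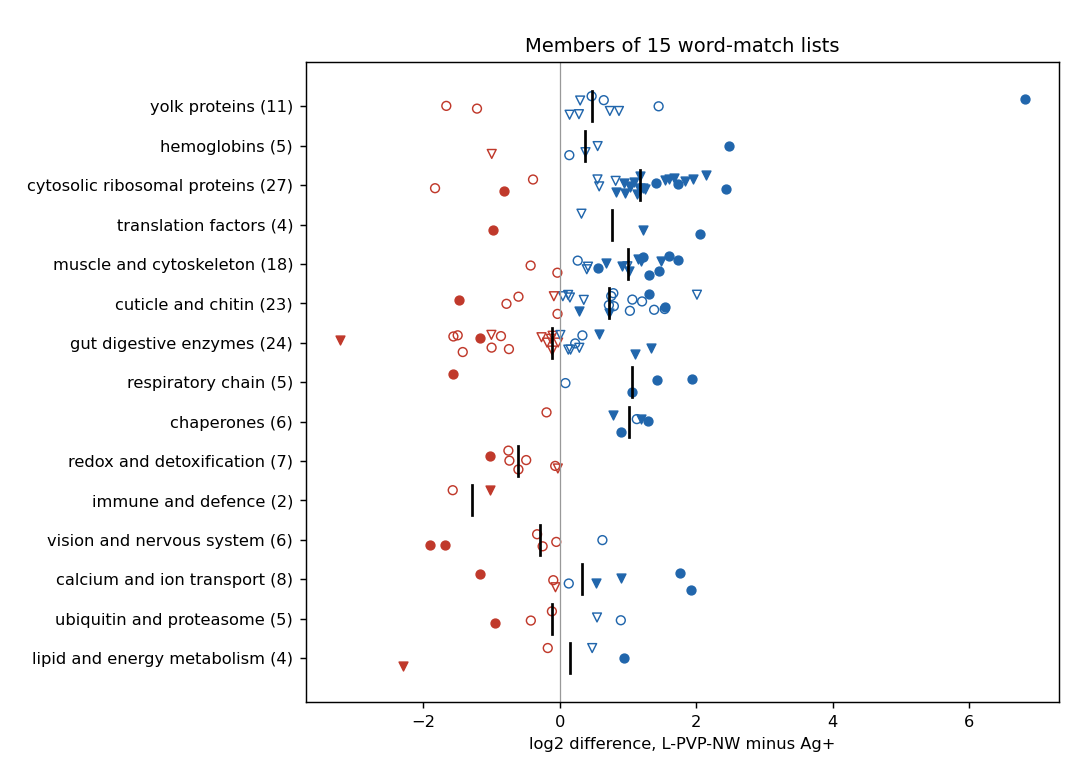
Log2 difference (L-PVP-NW minus Ag+, horizontal) of each member of 15 lists made by word match on the deposited names, with the number of members in brackets and the median as a bar. Filled symbols passed the test, triangles have a negative match frame and circles a positive one; ribosomal and muscle members sit mostly right of 0, redox members left of it.

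Digestive enzymes, which in daphnids are made in the midgut, did not shift as a group, with 3 higher, 2 lower and 19 of 24 not passing. Their median was -0.119 and changed sign to 0.24 when bright features set the common percentile. The mean level of the 24 members was 7.63, 7.65, 8.46 and 8.60 in Ag+ and 7.48 to 7.80 in L-PVP-NW on the normalised log2 scale. On Control 1 to 4 it was 7.57, 7.56, 7.64 and 8.75. Ag+ 3, Ag+ 4 and Control 4 thus stood above the other arrays of the 3 groups for the gut list as a whole, and the part of this in the protease results was not tested. No feature with a match at an E value of 0.001 or less carried a name on the list of algal food markers. The papain-family protease DM02974P1 read 1896, 542, 6526 and 8670 in Ag+ and 304, 206, 403 and 123 in L-PVP-NW (-3.22 ± 0.85, adjusted p = 0.0157). Ag+ 3 and 4 were far above Ag+ 1 and 2, and leaving out Ag+ 3 or Ag+ 4 gave adjusted p-values of 0.0611 and 0.0658; over all alternatives they ran from 0.00714 to 0.371. A trypsin-like serine protease was likewise high on 2 Ag+ arrays, with 61, 81, 429 and 265 against 56, 71, 65 and 57 (DM03023P3, -1.17 ± 0.31, adjusted p = 0.0153, at least 1.07-fold lower; 0.0593 without Ag+ 3 and 0.0635 without Ag+ 4). Cathepsin L-1, a lysosomal and gut protease, was higher by 1.34 (adjusted p = 0.00475).

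The same 2 Ag+ arrays were high at other features that were lower in L-PVP-NW. Muscle fatty acid-binding protein, a lipid carrier, read 1671, 2050, 7508 and 9983 in Ag+ and 1234, 319, 507 and 1036 in L-PVP-NW (-2.29 ± 0.69, adjusted p = 0.0288). A compound eye opsin, the light receptor, read 221, 720, 1716 and 2209 against 146, 142, 543 and 101 (-1.89 ± 0.52, adjusted p = 0.019). 4-aminobutyrate aminotransferase, which degrades the transmitter GABA, read 147, 184, 999 and 761 against 78, 97, 161 and 78 (-1.69 ± 0.38, adjusted p = 0.00671, at least 2.37-fold lower). In all 3, Ag+ 3 and 4 lay above Ag+ 1 and 2. The call for the fatty acid-binding protein (DM02721P1) was lost without Ag+ 3 (adjusted p = 0.0987), Ag+ 4 (0.111), L-PVP-NW B (0.0958) or L-PVP-NW C (0.0753), and that for the opsin (DM02717P2) without Ag+ 3 (0.0732), Ag+ 4 (0.0795), L-PVP-NW B (0.0565) or L-PVP-NW D (0.0587). Succinate-semialdehyde dehydrogenase, the next step of GABA breakdown, read 660, 621, 1271 and 1056 against 183, 256, 516 and 207 (DM05925P4, -1.19 ± 0.40, adjusted p = 0.0481), a call that was lost without any 1 of the 8 arrays other than L-PVP-NW C (adjusted p of 0.0521 to 0.128).

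The vision and nervous system list had 2 of 6 features lower and none higher, with a median of -0.29. Cuticle and chitin features were higher at 4 of 23 (17.4%) and lower at 1 (4.35%), with a median of 0.722. Both shares were below the 22.1% and 12% over all features with a match. With median centring 1 was higher. A putative cuticle protein, DM06074P3, read 1396, 929, 1403 and 1122 in Ag+ and 3763, 1906, 3246 and 2006 in L-PVP-NW (1.54 ± 0.39, adjusted p = 0.0126, and 0.0528 without L-PVP-NW A). The LDLa domain chitin-binding protein was the one that was lower, with 330, 508, 1450 and 1692 against 143, 174, 497 and 171 (-1.47 ± 0.35, adjusted p = 0.00887), and here too Ag+ 3 and 4 were the high arrays.

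Hemoglobin transcripts did not move together. Hemoglobin DM01561P3 read 304, 1241 and 163 on Ag+ 1, 3 and 4 and 792, 5021, 2386 and 786 in L-PVP-NW (2.48 ± 0.76, adjusted p = 0.0323), with overlapping groups and no value on Ag+ 2. The adjusted p was 0.0639 without Ag+ 1, 0.17 without Ag+ 4 and 0.112 without L-PVP-NW B, and over the alternatives it ran from 0.0249 to 0.17. Hemoglobin 4 DM01998P1 read 7391, 11126, 6026 and 4877 against 2830, 5697, 2954 and 1868, in the opposite direction (-0.995 ± 0.62, adjusted p = 0.316). The other 3 of the 5 hemoglobin features differed by 0.14 to 0.56 and did not pass.

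Among the remaining named features, cysteine-rich protein 1 was higher in L-PVP-NW, with 1259, 364, 267 and 401 in Ag+ and 2258, 1630, 2788 and 1456 in L-PVP-NW (2.42 ± 0.41, adjusted p = 0.00139). Lower in L-PVP-NW without overlap were purine nucleoside phosphorylase of nucleotide salvage (-1.18), the alpha isoform of a regulatory subunit A (DM00356P2, -1.15; adjusted p = 0.0535 without L-PVP-NW A), the signal transducer MAD homolog 5 (-1.02, at least 1.33-fold lower), a ubiquitin-conjugating enzyme (-0.94), myo-inositol 1-phosphate synthase (-0.75) and an ADP-ribosylation factor-like protein (DM00122P1, -0.65; adjusted p of 0.0503 without Ag+ 2, 0.0696 without L-PVP-NW A and 0.082 without L-PVP-NW B). The ubiquitin list had 1 of 5 features lower and a median of -0.113, which turned to 0.11 when bright features set the common percentile. The lipid and energy list had 1 higher and 1 lower of 4, oxoglutarate dehydrogenase of the citric acid cycle (DM00004P3, 0.94, adjusted p = 0.0291) and the fatty acid-binding protein. The former call was lost without Ag+ 2 (0.058), Ag+ 3 (0.0934), Ag+ 4 (0.0857), L-PVP-NW A (0.0687), B (0.0824) or D (0.0593), and the list median of 0.152 turned to -0.22 with median centring.

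Few features were high in L-PVP-NW against every other group. In direct contrasts 29 features were higher in L-PVP-NW than in Ag+ and than in each of the 3 other nanowire groups, and 18 were lower than in all 4. Those 3 contrasts called 2.15% (S-PVP-NW), 4.78% (L-SiO2-NW) and 9.32% (S-SiO2-NW) of features in either direction. Of the 29, 3 were also higher than Control, a contrast that called 4 features (0.0279%) in all. All these contrasts share the same 4 L-PVP-NW arrays. The array floor of L-PVP-NW, 48 to 50, also lay above that of L-SiO2-NW and S-PVP-NW (41 to 43) and S-SiO2-NW (42 to 45.37). What sets the floor and the exposure thus cannot be told apart against the other nanowires either. The Control floors, 46 to 50, met those of L-PVP-NW.

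DM04057P3 read 95, 81, 74 and 144 in Ag+, 96, 93, 77 and 91 in Control and 18551, 16081, 6664 and 625 in L-PVP-NW (6.02 ± 0.61 against Ag+, adjusted p = 1.91e-05, at least 56.3-fold). DM11644P3 read 61, 72, 107 and 104 in Ag+ and 25251, 6734, 4196 and 310 in L-PVP-NW (5.57 ± 0.71, adjusted p = 0.000238, at least 37.5-fold). Neither exceeded 113 on any of the 12 arrays of the other nanowires. At DM04057P3, S-PVP-NW, L-SiO2-NW and S-SiO2-NW differed from L-PVP-NW by -6.39, -6.26 and -6.57. DM12580P3, the third, read 79, 77, 89 and 102 in Ag+ and 198, 197, 347 and 133 in L-PVP-NW (1.42 ± 0.25, adjusted p = 0.00169, at least 2.25-fold). It read 143, 64, 66 and 60 in Control, so Control 1 lay above L-PVP-NW D.

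A pair of further features had the same ranking of arrays. DM04454P3 read 59, 71, 75 and 75 in Ag+ and 3169, 844, 591 and 75 in L-PVP-NW (3.05 ± 0.65, adjusted p = 0.00502, at least 5.8-fold), and DM09103P1 49, 49, 48 and 48 against 2249, 631, 95 and 77 (2.75 ± 0.69, adjusted p = 0.0117, at least 3.32-fold). At both features all 4 Ag+ arrays were dim, and L-PVP-NW arrays were dim as well, D at the first and C and D at the second. In these 2, as in DM04057P3 and DM11644P3, L-PVP-NW A was the highest and D the lowest array of the group, which differs from the order at vitellogenin DM02775P1. None of the 4 has a gene name. At these features the SE, pooled over all 6 groups, understates the spread among the L-PVP-NW arrays. The SD of intensity in L-PVP-NW and in Ag+ was 1370 and 7.57 at DM04454P3, and 1020 and 0.577 at DM09103P1. It was 8330 and 31.6 at DM04057P3, and 11100 and 23 at DM11644P3. DM04454P3, DM09103P1 and also DM12580P3 were chosen after their values were seen. L3e was among the 18 features lower in L-PVP-NW than in Ag+ and each other nanowire group.

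**Figure D5:**
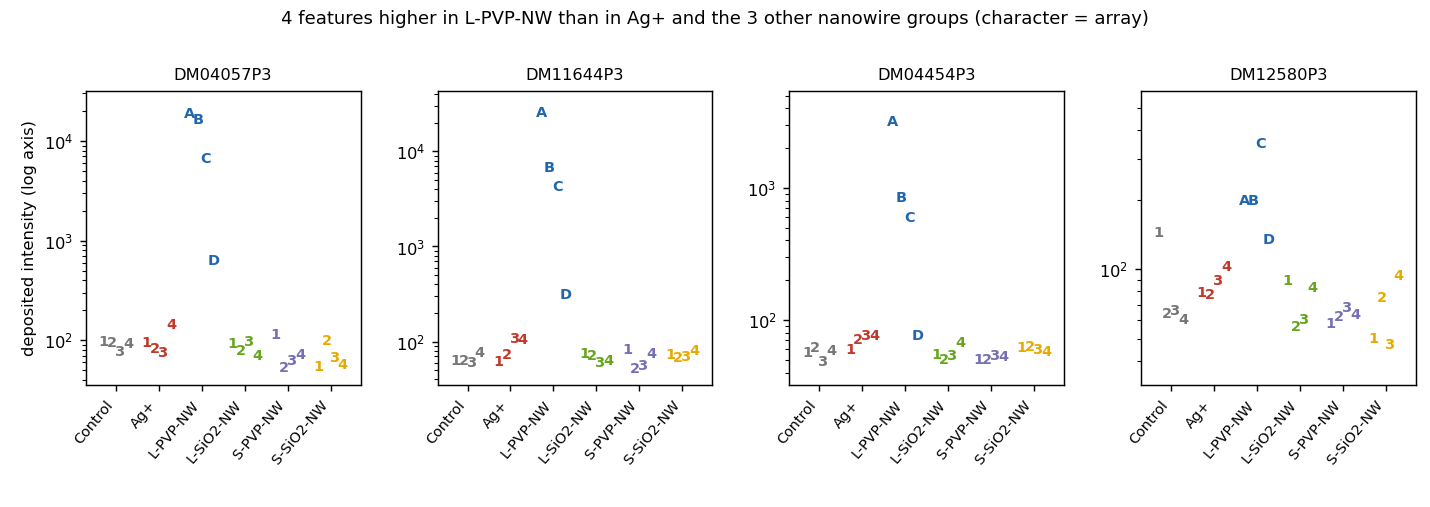
Deposited intensity (log axis) of 4 features on all 24 arrays by group, each array drawn as its own number or letter. DM04057P3, DM11644P3 and DM04454P3 read at most 144, 107 and 75 on Ag+ arrays and reach 18551, 25251 and 3169 on L-PVP-NW A, with L-PVP-NW D the lowest of the group.

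The contrasts of both groups with Control share its 4 arrays, so their values are given side by side only. L-PVP-NW against Control called 4 features, all higher, and Ag+ against Control 2557 (17.8%). The differences from Control, L-PVP-NW first, were -0.276 and -2.711 for S25e and -0.984 and -2.715 for muscle myosin DM00704P3. They were -0.043 and -1.969 for calcium ATPase at 60A, and -0.538 and -1.836 for heat shock protein 60. For vitellogenin DM02775P1 the 2 differences from Control were -1.69 and -8.51, for cytochrome oxidase I 0.11 and 2.08, for NADH dehydrogenase 5 0.07 and 1.63, for the papain-family protease 0.26 and 3.48 and for the secreted protein 0.97 and -1.70. In the authors' deposited table of log2 ratios to medium, the ionic silver column holds -9.5 for vitellogenin DM02775P1, 1.6 for cytochrome oxidase I, 3.5 for the papain-family protease and -1.8 for the secreted protein, with no entry for NADH dehydrogenase 5. The long PVP nanowire column of the authors' deposited table has no entry for these and holds 6.1 and 5.9 for DM04057P3 and DM11644P3. For vitellogenin DM02255P1, DM01546P3 and DM05876P2 that column holds -1.8, -2 and -1.3.

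At vitellogenin DM02775P1, S-SiO2-NW was below L-PVP-NW (-3.30, adjusted p = 0.0275), while L-SiO2-NW (0.08, adjusted p = 0.979) and S-PVP-NW (0.85, adjusted p = 0.751) did not pass. At NADH dehydrogenase 5, S-SiO2-NW was above L-PVP-NW by 1.21 (adjusted p = 0.0101).

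Within the groups, arrays were not evenly placed. Among 250 features called higher in L-PVP-NW with a mean intensity over 200, Ag+ 1 was the highest Ag+ array at 195 and L-PVP-NW C the lowest L-PVP-NW array at 141. Among 368 called lower, Ag+ 1 was the lowest Ag+ array at 230 and L-PVP-NW C the highest of its group at 220. Both arrays thus lay toward the opposite group at many of the called features. Leaving out both, an alternative chosen after seeing the data, gave 2842 calls. The mean level of the 27 ribosomal features showed the same, with 8.14, 7.77, 7.52 and 7.59 in Ag+ and 9.04, 8.95, 8.22 and 8.96 in L-PVP-NW on the normalised log2 scale, as did that of the muscle list, with 7.74, 7.70, 7.54 and 7.46 against 8.47, 8.72, 8.20 and 8.57.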

How the data were processed

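The deposited intensity values are single-channel (Cy3) whole numbers with a ceiling of 65535, not scaled between arrays; per the labels, 300 ng of total RNA was labelled with an Agilent one-colour kit. The authors' deposited table adds, for 1826 features, probe sequences, names, E values of protein matches and log2 ratios of each exposure to medium, of unstated scaling; per the labels each rests on 16 array-by-array comparisons. The E values and other scores served to choose names only.

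Zeros were set to missing, intensities were corrected with normexp (offset 50), log2-transformed and quantile-normalised over 24 arrays. Differences were tested with limma 3.58.1 in R 4.3.3, with 1 mean for each of 6 groups, two-sided moderated tests (prior df 1.59) and Benjamini-Hochberg adjustment over 14338 features at 0.05; errors are SE of the contrast. The number of arrays limits the precision. Where a fold is given as "at least", dim arrays of the lower group were raised to the limit; this was done for features that passed and were dim on all 4 arrays of that group, or whose fold it lowered over 1.1 times, unless the bound exceeded the ratio of mean intensities. Such a bound allows for dim arrays only and not for the SE of the difference. The limma procedure was tested on simulated data.

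The comparison, members, 16 word-match lists (15 with members) and rules were chosen with earlier results of these data known. Named features are, among those past 0.05 with a gene name (303 features) at E of 0.001 or less (493 features; the authors mark 434 as significant) and no overlap, the 15 largest in each direction, up to 4 passing members of each list, all yolk and hemoglobin features, and 5 passing features without a name in each direction; 12 others were chosen after their values were seen. Alternatives were 4 other scalings, a filter on dim features, fits on 8 arrays, array weights, trend with robust fitting, complete features, the array floor as covariate, and leaving out arrays. Features were not placed on a genome.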

Additional observations from a re-analysis of the deposited data

Results flagged for a closer look

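Within the groups of 4, 14 of 174 sets of named-feature values (89 features) had 1 array far from the other 3 by Dixon's ratio on the normalised log2 scale, where chance alone gives about 1 in 20. Ag+ 1 was high at DM00429P1 (10.56, the others 6.33 to 6.84) and at vitellogenin DM02775P1 (7.71, the others 5.99 to 6.04), and low at DM04454P3 (6.10). L-PVP-NW C was low at DM02350P1 (14.79, the others 15.81 to 15.94), the myosins DM02391P3 (8.25) and DM02533P1 (6.74), calreticulin DM00482P3 (7.27) and the vitelline membrane homolog DM02106P1 (7.59, the others 9.16 to 9.20). Ag+ 4 was low at the titin-like DM05957P1 (7.95) and high at initiation factor 4A2 DM01590P4 (10.09), and Ag+ 3 was low at cuticle protein DM05983P1 (6.04). L-PVP-NW D was high at vitellogenin-like DM05876P2 (7.15) and cytochrome oxidase subunit 2 DM01577P1 (8.22), and L-PVP-NW A at DM04858P2 (7).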

How the results depend on the processing

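The total of 2234 calls stayed within 1.5 times under 8 of 10 alternatives that kept all arrays of the 2 groups. With the array floor as covariate it was 29 (18 higher, 11 lower); the floors of the 2 groups do not overlap. With the 75th percentile of bright features made common it was 1328, of which 301 were lower, and with raw intensities at that percentile 705 were lower; with median centring 574 were higher. Leaving out 1 array at a time gave 1172 to 2703 calls, 496 to 1217 higher and 676 to 1486 lower. Of 73 named features that passed, 8 passed under every alternative run, vitellogenin DM02775P1 (adjusted p from 2.57e-05 to 0.0302), DM04057P3 and DM11644P3 among them; fitting only the 8 arrays lost 16 and leaving out 1 array lost 2 to 17. None of the named features that passed changed sign. Signs turned only at features that had not passed: DM01857P2 (-0.12 to 1.11 without 1 array), DM01774P1 (-0.14 to 0.50), DM05876P2 (-0.09 to 0.25) and the sodium/potassium pump DM02022P2 (-0.09 to 0.43, -0.01 with median centring, -0.19 with the array floor and -0.25 without both Ag+ 1 and L-PVP-NW C). The causes were not tested. No paired analysis was possible because Ag+ arrays are numbered and L-PVP-NW arrays are lettered, so the groups share no replicate number. Most features are dim, which limits their folds.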

Other observations

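Features without a gene name made up 2122 of the 2234 calls. Among them DM14198P1 read 62, 60, 60 and 57 in Ag+ and 557, 1901, 481 and 1556 in L-PVP-NW, with L-PVP-NW B and D high as at vitellogenin DM02775P1 (4.10, adjusted p = 0.000153, at least 10.5-fold). On the lower side the unnamed DM02356P3 read 592, 635, 5626 and 6837 in Ag+ and 270, 138, 264 and 203 in L-PVP-NW, with Ag+ 3 and 4 high as at the papain-family protease (-2.83, adjusted p = 0.012; 0.0536 without Ag+ 3 and 0.0534 without Ag+ 4). DM14198P1 was chosen after its values were seen.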
